A study of Mus musculus with 6 samples.

Results

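The genes examined were the monocyte-attracting CC chemokines Ccl2, Ccl3, Ccl4, Ccl6, Ccl7, Ccl8 and Ccl9 and the CC chemokine receptors Ccr1 and Ccr2. They were chosen by name, as 9 of the 33184 Ensembl gene IDs in the expression table, and all 9 passed the filter on low values, among 16005 genes tested. The samples were 6 RNA-seq libraries of skin wound tissue from db/db mice, a diabetic line that lacks the long leptin receptor. A round wound of 6 mm was cut through the skin, SFRP2-siRNA or the control NC-siRNA was given by injection beside it at dpi1 (days post-injury), and tissue was taken at dpi4, whereas the sample titles carry day 3. There were 3 NC libraries and 3 SFRP2-siRNA-labelled libraries, all from db/db mice. The age of the mice is not given in the labels. Nothing in the labels states that each library was a separate animal, so the p-values measure the spread between these samples only. The titles number the treated samples 1 to 3 and the study lists 3 siRNA sequences under the same numbers, so a difference between sequences cannot be told apart from one between samples.

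Chemokines are small secreted proteins that bind G protein-coupled receptors on leukocytes and draw the cells up a gradient. Ccr2 on inflammatory monocytes binds Ccl2 and Ccl7, which drives the exit of these cells from bone marrow and their entry into injured tissue. Ccr1, found on monocytes, macrophages and neutrophils, binds Ccl3, Ccl6, Ccl7 and Ccl9. In skin wounds, monocytes that arrive after neutrophils mature into macrophages, which themselves secrete many of these ligands.

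Depth ranged from 42.9 to 47.1 M reads (M, the prefix mega) per library, as recovered from the FPKM values (fragments per kilobase of transcript, scaled to the mapped total). The members were well covered, from 489 reads for Ccl7 to 25918 reads for Ccl6 in the lowest and highest library. Sfrp2, the targeted gene, was 22.1 ± 16.1 FPKM in NC and 53.5 ± 2.52 FPKM in the SFRP2-siRNA-labelled libraries (mean ± SD, n = 3 each), with no overlap (two-sided exact permutation p = 0.1). Values were 11.6, 40.6 and 14.1 FPKM in the NC libraries and 50.6, 54.6 and 55.2 FPKM in the other group. The transcript thus went against the label, whereas the study reported decreased SFRP2 by immunofluorescence staining in wounds of siRNA-treated diabetic mice. The reason for this difference was not tested, and groups are called by their labels throughout. The tissue markers were in place: the summed FPKM of 5 keratinocyte markers was 3263 or more and that of 6 fibroblast markers 823 or more in every library.

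Promoters are shown for Ccl6 and Ccl9, neighbours whose profiles over the libraries were the most alike, for Ccl8, the most abundant member, and for Ccr1, the member with the highest fold change. The sequences are the 250 bases before the annotated start, from RefSeq on GRCm38.p6, written 5′ to 3′ on the gene's strand. The RefSeq table used here held 6 of the 9 members. Ccl6 lies at chr11:83593088-83593337 (minus strand), Ccl9 at chr11:83578637-83578886 (minus strand), Ccl8 at chr11:82114935-82115184 (plus strand) and Ccr1 at chr9:123968693-123968942 (minus strand). Capitals mark the letters of TATAAA, a kappa-B motif (GGG, any 2 bases, TTTCC) or TGANTCA (an AP-1 motif), on either strand.
Ccl6: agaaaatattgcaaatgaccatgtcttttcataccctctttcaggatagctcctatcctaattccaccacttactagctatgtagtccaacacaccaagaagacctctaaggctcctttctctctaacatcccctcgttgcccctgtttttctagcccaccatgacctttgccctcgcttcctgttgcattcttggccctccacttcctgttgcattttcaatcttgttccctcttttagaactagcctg
Ccl9: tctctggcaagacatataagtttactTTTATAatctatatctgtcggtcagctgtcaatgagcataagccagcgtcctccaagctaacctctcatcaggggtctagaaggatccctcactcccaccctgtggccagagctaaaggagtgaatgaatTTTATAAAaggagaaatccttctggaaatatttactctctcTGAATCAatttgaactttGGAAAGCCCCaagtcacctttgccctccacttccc
Ccl8: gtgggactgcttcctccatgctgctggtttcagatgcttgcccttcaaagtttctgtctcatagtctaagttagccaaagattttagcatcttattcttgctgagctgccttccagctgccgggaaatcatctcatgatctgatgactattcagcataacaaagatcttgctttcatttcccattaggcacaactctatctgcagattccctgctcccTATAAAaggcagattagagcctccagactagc
Ccr1: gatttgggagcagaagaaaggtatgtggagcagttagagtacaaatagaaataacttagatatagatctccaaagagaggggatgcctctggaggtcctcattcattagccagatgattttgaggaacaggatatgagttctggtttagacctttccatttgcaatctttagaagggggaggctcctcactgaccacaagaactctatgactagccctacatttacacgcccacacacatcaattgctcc

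In Ccl8 the letters TATAAA lay 32 to 27 bases before the start. In Ccl9 TATAAA and its reverse complement overlapped between 94 and 87 bases before the start, the reverse complement also lay at 224 to 219, TGAATCA lay at 53 to 47 and GGAAAGCCCC, the reverse complement of the kappa-B letters, at 35 to 26. Of 32851 promoter windows of the same length, 12.4% held TATAAA, 1.41% the kappa-B letters and 6.75% the AP-1 letters. The letters of C/EBP (TTGCNNAA), PU.1 (GAGGAAGT), STAT (TTCNNNGAA) and GC box (GGGCGG) motifs were in 9.56%, 2.44%, 7.02% and 32.7% of windows. None of the 7 motifs was in the windows of Ccl3, Ccl6, Ccr1 or Ccr2. A match describes these letters only.

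Ccl8 and Ccl6 were the most abundant members, followed by Ccl3, Ccl4, Ccl9, Ccl7 and Ccl2, and then by the receptors Ccr1 and Ccr2 (NC means, in FPKM, which are per gene length). In NC, mean levels ran from 209 FPKM for Ccl8 and 145 FPKM for Ccl6 to 4.44 FPKM for Ccr2. In the SFRP2-siRNA-labelled libraries the order was the same, except that Ccr1 stood above Ccl2. Neighbours in the order overlapped over their libraries at every step but 2 in each group: Ccl6 stayed above Ccl3 in both, and Ccr2 stayed below its neighbour, which was Ccr1 in NC and Ccl2 in the other group.

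**Figure D1:**
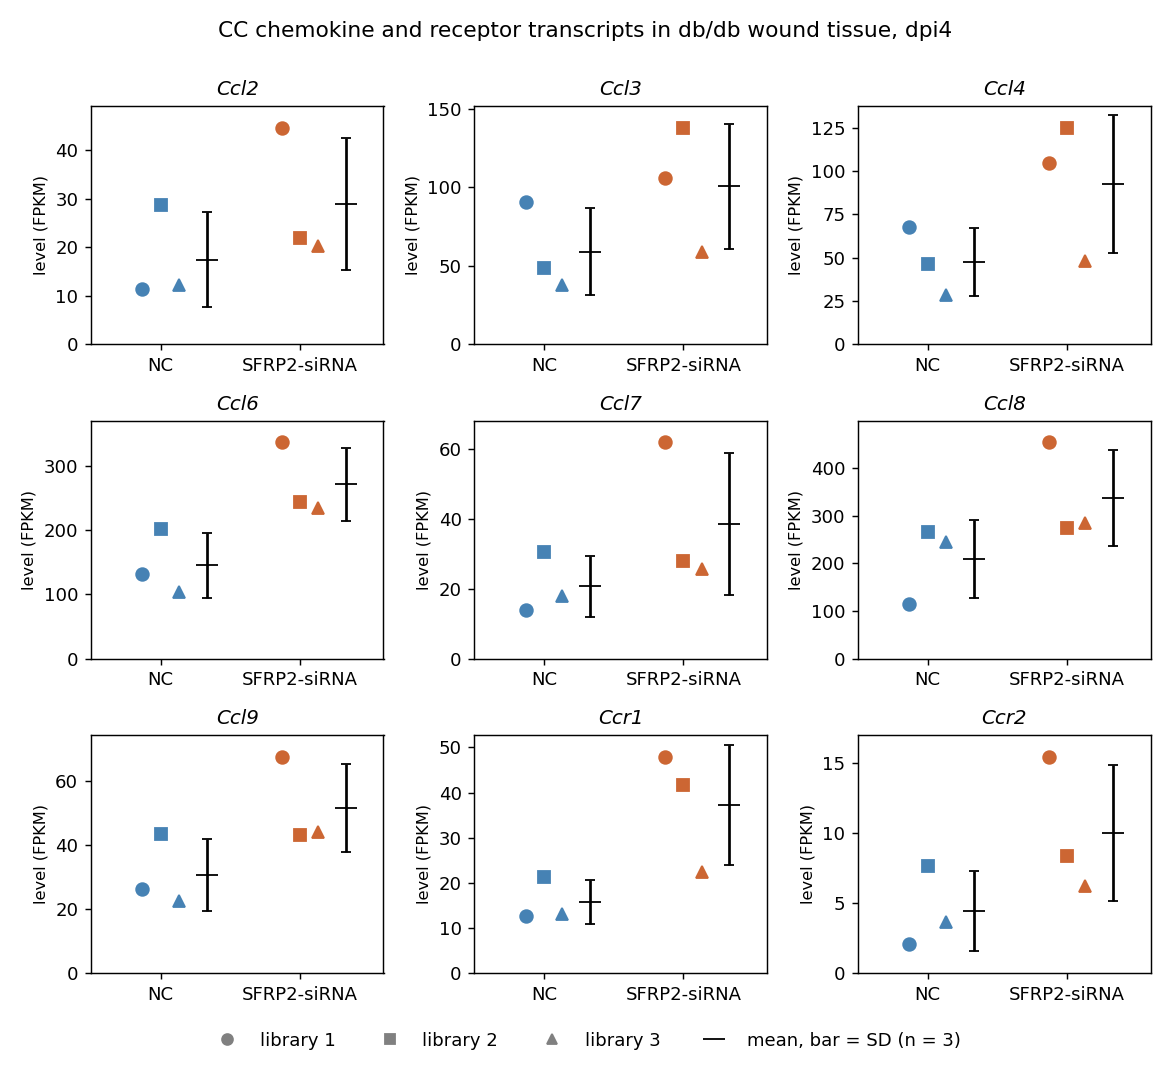
Level of each of the 9 genes in every library, in FPKM, 1 panel a gene, with a point for each NC library and each SFRP2-siRNA-labelled library and the mean ± SD of each group (n = 3) beside them. Ccl6, Ccl8 and Ccr1 show no overlap between groups, whereas the other 6 genes overlap.

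All 9 genes had a higher mean in the SFRP2-siRNA-labelled libraries, and none passed the threshold of the study (absolute log2 fold change above 1 and adjusted p under 0.05) in limma. Over all 16005 genes tested, 0 genes (0%) passed it, and 71.8% had a log2 fold change above 0. With its own test, which was not run here, the study reported genes past these limits, more of them lower than higher. Fold changes are on the log2(FPKM + 1) scale. The median log2 fold change was 0.82 over the members and 0.13 over all genes tested. At unadjusted limma p under 0.05, 4 members were higher (Ccr1, Ccl6, Ccl9 and Ccr2), beside 6.72% of all genes tested. Values did not overlap between groups for 3 members (Ccl6, Ccl8 and Ccr1), each higher in the SFRP2-siRNA-labelled libraries, beside 13.9% of all genes tested. With median-of-ratios scaling, which centres the genes, the median over all genes was 0.0046 and that of the members 0.67, with 2 members (Ccr1 and Ccl6) at unadjusted limma p under 0.05, beside 2.74% of all genes tested that were higher at that limit, and 1, Ccl6, higher without overlap, beside 5.54%. In bulk tissue, more cells of a type and more RNA per cell cannot be told apart.

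**Figure D2:**
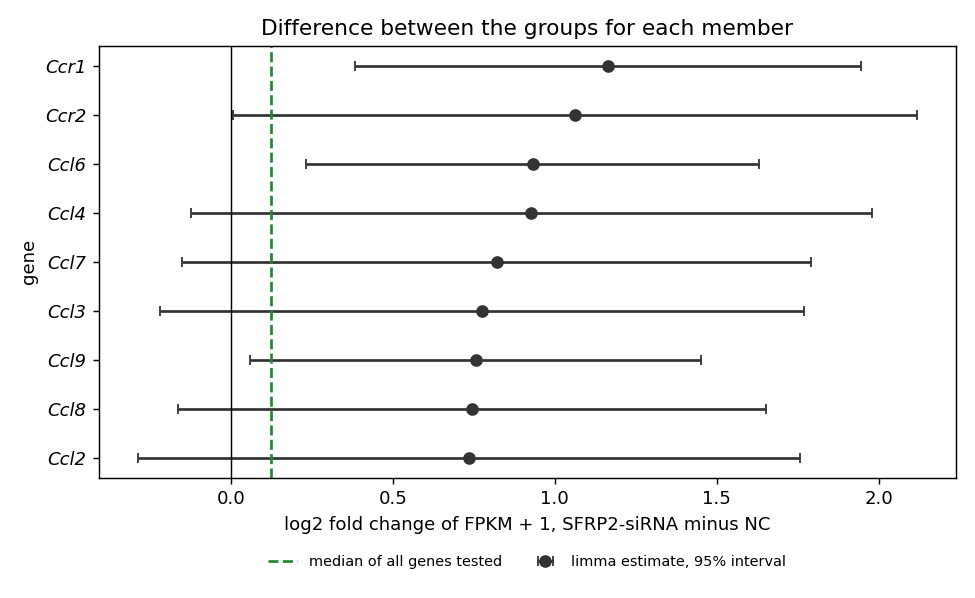
Log2 fold change of each member (SFRP2-siRNA-labelled libraries minus NC, on the log2(FPKM + 1) scale) with its 95% confidence interval from limma, beside the median over all genes tested. All 9 points lie above 0, and the intervals of Ccr1, Ccl6, Ccl9 and Ccr2 do not include 0 before adjustment.

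Ccl2 (ENSMUSG00000035385), or MCP-1, is the main monocyte chemoattractant acting on Ccr2. It was 11.4, 28.7 and 12.1 FPKM in NC 1, 2 and 3, against 44.6, 22.0 and 20.2 FPKM in SFRP2-siRNA-labelled libraries 1, 2 and 3. NC 2 stood above 2 of the libraries of the other group, so the groups overlapped. Means were 17.4 ± 9.81 and 28.9 ± 13.6 FPKM (SD, n = 3 each), with a log2 fold change of 0.74 (SE 0.43, 95% CI -0.29 to 1.76; adjusted limma p = 0.545; two-sided exact permutation p = 0.3). The value was 0.39 without the library labelled SFRP2-siRNA 1 and 1.14 without NC 2.

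Ccl7 (ENSMUSG00000035373), or MCP-3, is a second Ccr2 ligand that also binds Ccr1. It was 13.8, 30.5 and 17.9 FPKM in the NC libraries and 62.0, 27.9 and 25.7 FPKM in those labelled SFRP2-siRNA. As for Ccl2, the highest value was that of the library labelled SFRP2-siRNA 1, and NC 2 exceeded both other libraries of that group. The means were 20.8 ± 8.71 and 38.6 ± 20.4 FPKM, and the log2 fold change of 0.82 (SE 0.41, 95% CI -0.15 to 1.79; adjusted limma p = 0.524; exact permutation p = 0.3) became 0.43 without that library. Ccl2 and Ccl7 are neighbours on chromosome 11, and their ratio varied little, from 0.676 to 0.940 over the 6 libraries.

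Ccl8 (ENSMUSG00000009185), which in mice acts through Ccr8, was the most abundant member. Levels were 115, 266 and 245 FPKM in the NC libraries and 454, 275 and 284 FPKM in those labelled SFRP2-siRNA. The groups did not overlap, although NC 2 (266 FPKM) was close to the lowest of the other group. Means were 209 ± 81.9 and 338 ± 101 FPKM, with a log2 fold change of 0.75 (SE 0.38, 95% CI -0.16 to 1.65; adjusted limma p = 0.529; exact permutation p = 0.1, the smallest that 3 against 3 allows). Without NC 1 the value was 0.36.

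Ccl3 and Ccl4 encode MIP-1 alpha and MIP-1 beta, ligands made early by activated macrophages and neutrophils. Ccl3 (ENSMUSG00000000982) was 90.3, 48.5 and 37.8 FPKM in NC and 106, 138 and 58.3 FPKM in the SFRP2-siRNA-labelled libraries. Ccl4 (ENSMUSG00000018930) was 67.9, 46.1 and 28.4 FPKM in NC and 105, 125 and 48.1 FPKM in the SFRP2-siRNA-labelled libraries. For both, NC 1 was the highest NC library and exceeded the library labelled SFRP2-siRNA 3, and both differed from the other 7 members in having their highest value in the library labelled SFRP2-siRNA 2. Means were 58.8 ± 27.7 and 101 ± 39.9 FPKM for Ccl3, with a log2 fold change of 0.77 (SE 0.42, 95% CI -0.22 to 1.77; adjusted limma p = 0.536; exact permutation p = 0.2). Means were 47.5 ± 19.8 and 92.7 ± 39.9 FPKM for Ccl4, with a log2 fold change of 0.93 (SE 0.44, 95% CI -0.12 to 1.98; adjusted limma p = 0.523; exact permutation p = 0.2). Their ratio ranged from 1.01 to 1.33. The Ccl3 value was 0.51 without NC 3 or without the library labelled SFRP2-siRNA 2, and that of Ccl4 was 0.61 without NC 3.

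Ccl6 and Ccl9 are mouse ligands of Ccr1, and lie side by side on chromosome 11, followed by Ccl3 and Ccl4. Ccl6 (ENSMUSG00000018927) was 131, 202 and 103 FPKM in NC and 336, 243 and 234 FPKM in the SFRP2-siRNA-labelled libraries, with no overlap. Ccl9 (ENSMUSG00000019122) was 26.1, 43.3 and 22.4 FPKM in NC and 67.4, 43.1 and 44.0 FPKM in the SFRP2-siRNA-labelled libraries, where NC 2 was just above the lowest library. Both were highest in the library labelled SFRP2-siRNA 1, and NC 2 was the highest NC library. For Ccl6, means were 145 ± 50.6 and 271 ± 56.6 FPKM and the log2 fold change was 0.93 (SE 0.29, 95% CI 0.23 to 1.63; limma p = 0.0163, adjusted p = 0.518; exact permutation p = 0.1). For Ccl9, means were 30.6 ± 11.2 and 51.5 ± 13.8 FPKM and the log2 fold change was 0.76 (SE 0.29, 95% CI 0.06 to 1.45; limma p = 0.0372, adjusted p = 0.518; exact permutation p = 0.2). The unadjusted limma call of Ccl6 held in 15 of 17 alternatives, and was lost without NC 1 (log2 fold change 0.88) or NC 3 (0.72). That of Ccl9 held in 9 of 17, and was lost under median-of-ratios scaling (log2 fold change 0.60), under quantile normalization (0.68), when samples were weighted (0.50) and without NC 1 (0.67), NC 3 (0.57) or the library labelled SFRP2-siRNA 1 (0.55), among others. The Ccl6 to Ccl9 ratio was between 4.62 and 5.65. Words of 50 bases shared with other genes, whose reads have no single origin, made up 1.97% of Ccl9.

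Ccr1 (ENSMUSG00000025804), the receptor of several of these ligands, had the highest fold change among the members. It was 12.7, 21.4 and 13.1 FPKM in NC and 47.9, 41.6 and 22.3 FPKM in the SFRP2-siRNA-labelled libraries. The groups did not overlap, but NC 2 and the library labelled SFRP2-siRNA 3 were close. Means were 15.7 ± 4.88 and 37.3 ± 13.3 FPKM, a ratio of 2.37, and the log2 fold change was 1.16 (SE 0.33, 95% CI 0.38 to 1.94; limma p = 0.00991, adjusted p = 0.518; exact permutation p = 0.1). Unadjusted limma p was 0.0434 or less under each of 17 alternatives, and no adjusted p fell below 0.203.

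Ccr2 (ENSMUSG00000049103), the receptor that brings inflammatory monocytes to tissue, was the least abundant member. Values were 2.04, 7.64 and 3.64 FPKM in NC and 15.4, 8.34 and 6.23 FPKM in the SFRP2-siRNA-labelled libraries, where NC 2 exceeded the lowest. Its highest library was 7.56 times the lowest, the widest range among the members, and Ccl9 had the narrowest, 3.01 times. Means were 4.44 ± 2.88 and 10.0 ± 4.83 FPKM, and the log2 fold change was 1.06 (SE 0.44, 95% CI 0.0068 to 2.12; limma p = 0.0489, adjusted p = 0.518; exact permutation p = 0.2). The unadjusted limma call held in 4 of 17 alternatives, and was lost with a pseudocount of 0.1, with no filter on low values and with median-of-ratios scaling (log2 fold change 0.93), among others. It was also lost without NC 1 (0.71), NC 3 (1.01) or the library labelled SFRP2-siRNA 1 (0.73) or 2 (1.14), and the log2 fold change was 0.68 with sample weights. The words shared with other genes made up 1.91% of Ccr2.

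The same libraries were high or low for most members. The library labelled SFRP2-siRNA 1 was the highest of all for 7 of the 9, and for these 7 NC 2 was the highest NC library. The exceptions, Ccl3 and Ccl4, were highest in the library labelled SFRP2-siRNA 2. The mean standardized level of the 9 was -0.88, 0.02 and -1.01 in NC 1, 2 and 3 and 1.29, 0.59 and -0.0044 in SFRP2-siRNA-labelled libraries 1, 2 and 3, so NC 2 stood above the lowest library of the other group.

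**Figure D3:**
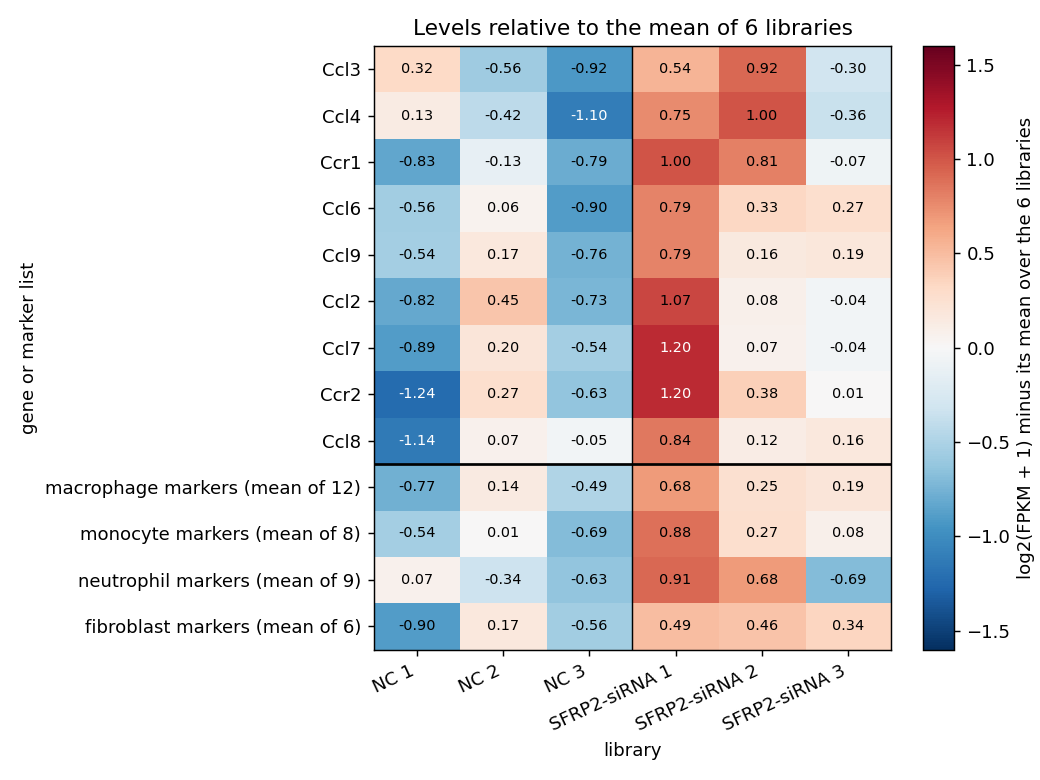
Heat map of each member's log2(FPKM + 1) level in each library relative to its mean over all 6, with means of macrophage, monocyte, neutrophil and fibroblast markers below. Ccl3 and Ccl4 peak in the library labelled SFRP2-siRNA 2, the other members in the library labelled SFRP2-siRNA 1.

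Distances between standardized profiles (root mean square over the 6 libraries) were smallest for Ccl6 and Ccl9 at 0.16, Ccl3 and Ccl4 at 0.18 and Ccl2 and Ccl7 at 0.20, each a pair of neighbours in the genome. Ccr2, on chromosome 9, was as close to Ccl7 (0.20) as Ccl2 was, and stood 0.26 from Ccl2. Ccl3 and Ccl8 were farthest apart at 1.25. Ccl3 and Ccl6 are also neighbours, and stood 0.84 apart. Genes that are not members and had the profile closest to the mean of the members, of 8101 genes averaging 5 FPKM or more, were Gnai2 (distance 0.12), Dok3 (0.12), Inpp5d (0.13), Prcp (0.13) and Gramd1a (0.15).

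As deposited, the summed level of the 7 ligands was 455, 665 and 467 FPKM in NC and 1175, 874 and 715 FPKM in the SFRP2-siRNA-labelled libraries. These sums did not overlap (means 529 ± 118 and 921 ± 234 FPKM; exact permutation p = 0.1). Median-of-ratios scaling divides NC 2 by 0.986 and the library labelled SFRP2-siRNA 3 by 1.09. That puts NC 2 above this library, so the groups then overlap. The make-up of the deposited sum did not separate the groups. Ccl8 took 25.2%, 40.0% and 52.5% of it in NC and 38.6%, 31.5% and 39.8% in the SFRP2-siRNA-labelled libraries, and Ccl6 took 28.7%, 30.3% and 22.2% and then 28.6%, 27.8% and 32.8%. NC 1 differed from the other NC libraries in its Ccl3 share, 19.8% against 7.29% and 8.09%. Groups overlapped for all 7 shares, and each exact permutation p, adjusted over the 7, was 1.

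**Figure D4:**
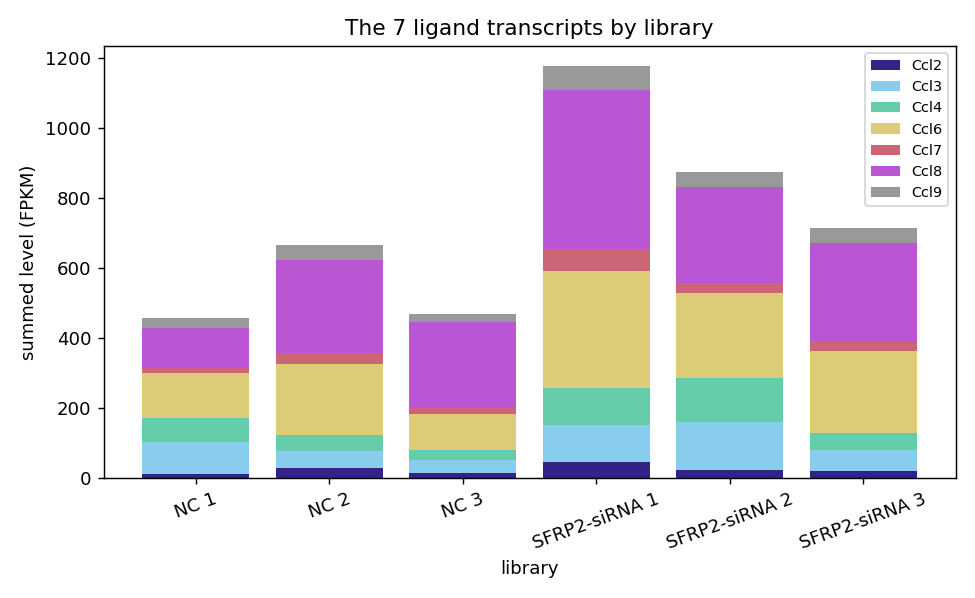
Stacked bars of the 7 ligand levels, in FPKM as deposited and without further scaling, for each library. The bars of the SFRP2-siRNA-labelled libraries, 715 to 1175 FPKM high, all exceed those of NC, 455 to 665 FPKM high, and Ccl8 and Ccl6 make up the larger part of each.

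Of 8 ratios between members, Ccl2 to Ccr2 was the one whose groups did not overlap. It was 5.56, 3.76 and 3.32 in NC and 2.89, 2.63 and 3.24 in the SFRP2-siRNA-labelled libraries. Its p was 0.1 in an exact permutation test, or 0.8 adjusted over the 8 ratios. As 0.1 is the smallest p that 3 against 3 allows, no ratio could pass 0.05, so the test could not decide. The Ccl3 to Ccl2 ratio varied most, from 1.69 to 7.95, and was highest in NC 1.

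None of 12 macrophage markers passed the adjusted limma threshold. All 12 had a higher mean in the SFRP2-siRNA-labelled libraries, 9 of them at unadjusted limma p under 0.05 and 5 without overlap, with a median log2 fold change of 0.74 and a summed level of 990 to 1721 FPKM in NC against 1937 to 2489 FPKM. None of them was at 0 in any library, and the 9 unadjusted calls held in 4 to 11 of 17 alternatives. Of all genes tested, 71.8% had a log2 fold change above 0, 6.72% were higher at that unadjusted limit and 13.9% higher without overlap. Relative to the mean log2 level of those markers in the same library, the differences between groups were -0.01 for Ccl2, 0.03 for Ccl3, 0.18 for Ccl4, 0.19 for Ccl6, 0.08 for Ccl7, -0.00057 for Ccl8 and 0.01 for Ccl9, and the groups overlapped for every ligand. For Ccr1 the difference was 0.42 (exact permutation p = 0.2) and for Ccr2 0.32 (exact permutation p = 0.4), also with overlap. The part of macrophage RNA in these results was not tested.

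**Figure D5:**
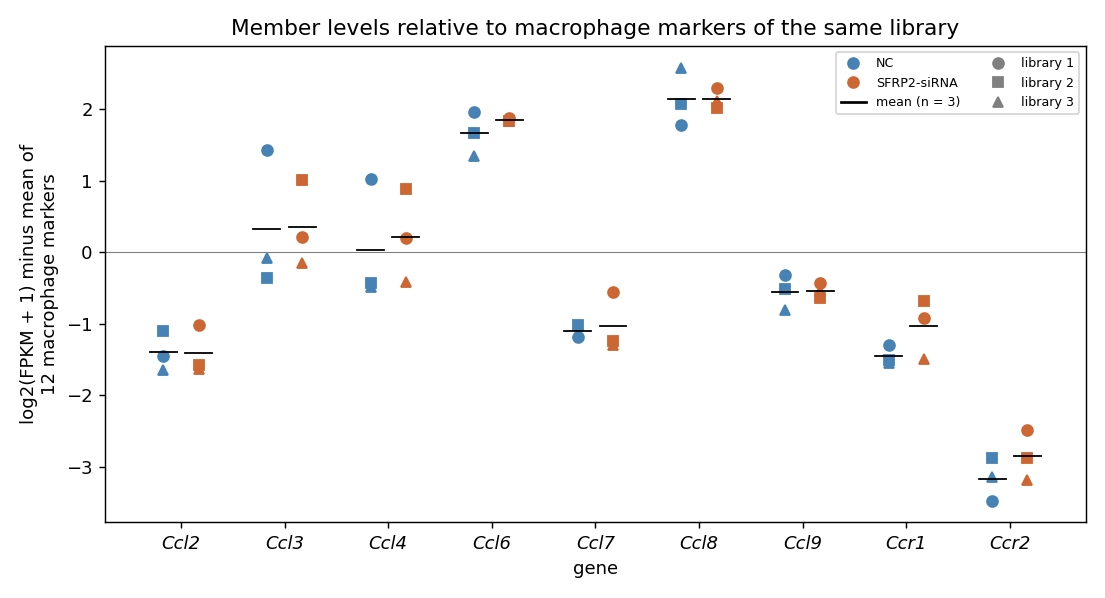
Level of each member relative to the mean of 12 macrophage markers in the same library (log2 difference), by library and group. The groups overlap for all 9 genes, with differences of 0.42 for Ccr1, 0.32 for Ccr2 and between -0.01 and 0.19 for the ligands.

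Markers of other cell types are given by their means, and no marker passed the adjusted limma threshold. The 8 monocyte markers were all higher by their means, 4 at unadjusted limma p under 0.05, with a median log2 fold change of 0.90 and a summed level of 74.1 to 129 FPKM in NC against 151 to 265 FPKM. The 6 fibroblast markers had higher means, all 6 at unadjusted limma p under 0.05 (median 0.87), with sums of 823 to 1831 FPKM against 2028 to 2118 FPKM. The 4 mast cell markers did likewise, all 4 at that limit (median 0.70), with sums of 91.5 to 104 FPKM against 135 to 195 FPKM. Of all genes tested, 6.72% were higher at that limit and 71.8% had a log2 fold change above 0. Unadjusted calls held in 7 to 17 of 17 alternatives for monocyte, 6 to 17 for fibroblast and 10 to 17 for mast cell markers. Summed neutrophil markers overlapped between groups, 1155 to 1800 FPKM against 1002 to 5546 FPKM, and were lowest in the library labelled SFRP2-siRNA 3 (7 of 9 genes higher, median 0.81). For keratinocyte markers 2 of 5 were higher (median -0.0041, sums 3577 to 6147 FPKM against 3263 to 6606 FPKM) and for adipocyte markers 0 of 5 (median -0.19, sums 747 to 1009 FPKM against 475 to 1109 FPKM). T cell markers (4 of 7 tested, 2 higher, median 0.08, sums 12.1 to 14.3 FPKM against 10.5 to 17.5 FPKM) and those of Langerhans and dendritic cells (4 of 6 tested, 3 higher, median 0.29, sums 4.37 to 6.86 FPKM against 5.35 to 13.5 FPKM) were low. The part of these cells in the results was not tested.

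Of 14 other CC chemokines listed, 10 were tested, with 9 higher by their means (71.8% of all genes tested) and a median log2 fold change of 0.29. Ccl12 (MCP-5, a mouse ligand of Ccr2) was 11.1 ± 4.91 FPKM in NC and 19.9 ± 4.72 FPKM in the SFRP2-siRNA-labelled libraries, for a log2 fold change of 0.84 (SE 0.31; limma p = 0.0291, adjusted p = 0.518; exact permutation p = 0.2). Ccl21a, a ligand of Ccr7, was 8.12 ± 3.29 and 19.4 ± 4.21 FPKM, for a log2 fold change of 1.20 (SE 0.27; limma p = 0.00341, adjusted p = 0.518; exact permutation p = 0.1) with no overlap. Sequence shared with other genes was measured for the members only, so it is not known for Ccl21a. Ccl11, or eotaxin, was 30.5 ± 4.01 and 37.8 ± 9.41 FPKM. Ccl24, another eotaxin, had a log2 fold change of 0.37 (limma p = 0.0258, exact permutation p = 0.1) and Ccl27a, a chemokine of keratinocytes, one of -0.69 (limma p = 0.0211, exact permutation p = 0.1), both named after their values were seen. No adjusted limma p was below 0.518 in this list. Unadjusted limma p was under 0.05 in 17 of 17 alternatives for Ccl21a, 16 for Ccl27a, 10 for Ccl12 and 9 for Ccl24.

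Among other CC and atypical receptors, 7 of 11 were tested and 6 had a higher mean (71.8% of all genes tested), with a median log2 fold change of 0.32. Ackr1, a receptor of venules that carries chemokines across the endothelium, was 4.29 ± 0.714 FPKM in NC and 8.04 ± 2.83 FPKM in the SFRP2-siRNA-labelled libraries (log2 fold change 0.74, SE 0.24; limma p = 0.0182, adjusted p = 0.518; exact permutation p = 0.1). Ackr2, a scavenger of CC chemokines, was 1.72 ± 0.455 and 2.71 ± 0.383 FPKM (log2 fold change 0.45, SE 0.16; limma p = 0.0271, adjusted p = 0.518; exact permutation p = 0.1). The unadjusted limma call held in 16 of 17 alternatives for Ackr1 and in 14 for Ackr2. Ccrl2 was 3.43 ± 1.18 and 5.20 ± 2.86 FPKM.

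Genes that carry the receptor signal were all higher by their means, 16 of 16, with a median log2 fold change of 0.56. Of these, 6 were at unadjusted limma p under 0.05 and 4 were without overlap. Over all genes tested, 71.8% had a log2 fold change above 0, 6.72% were higher at that limit and 13.9% higher without overlap. The 6 unadjusted calls held in 7 to 17 of 17 alternatives. Gnai2, the inhibitory G protein subunit that chemokine receptors use, was 74.1 ± 11.2 FPKM in NC and 103 ± 16.9 FPKM in the SFRP2-siRNA-labelled libraries (log2 fold change 0.47, SE 0.19; limma p = 0.0460, adjusted p = 0.518; exact permutation p = 0.1). Its unadjusted limma call held in 8 of 17 alternatives, and was lost with median-of-ratios scaling, where the log2 fold change was 0.31. The 7 NF-kB regulators and feedback targets had higher means as well, with 0 at unadjusted limma p under 0.05 and a median of 0.37. Nfkbia, the NF-kB inhibitor that NF-kB itself induces, was 58.7 ± 9.15 and 86.3 ± 25.7 FPKM. Rela was higher in the deposited values and lower with median-of-ratios scaling, quantile normalization or rescaling without the most abundant genes. Of 8 inducers and growth factors of monocytes, 6 were tested and 6 had a higher mean, 1 of them (Il34, named after its value was seen) at unadjusted limma p under 0.05, a call held in 7 of 17 alternatives, with a median of 0.45. Il1b was 111, 82.9 and 46.9 FPKM in NC and 223, 253 and 56.5 FPKM in the SFRP2-siRNA-labelled libraries, where NC 1 was the highest NC library and the library labelled SFRP2-siRNA 2 the highest of all, as for Ccl3 and Ccl4. Tnf was 9.12 ± 4.35 and 13.5 ± 6.93 FPKM, and Csf1 was 11.3 ± 3.79 and 15.9 ± 4.56 FPKM.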

How the data were processed

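RNA was measured in 6 libraries. The authors deposited FPKM values in 1 table (fragments per kilobase, scaled to each library's mapped total), and the submitters' processing notes name HISAT2, featureCounts and Subread. Their versions, the genome build and the annotation are not given in the sources used here. Symbols matched 32582 of 33184 gene IDs. With GENCODE vM21 gene lengths, values gave whole reads in all libraries for 96.8% of genes (tolerance 0.05), from which depth was taken.

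Values were analysed as log2(FPKM + 1). The 16005 genes averaging 0.5 FPKM or more were tested with limma 3.58.1 (lmFit, eBayes with trend; R 4.3.3) in a two-sided test, and p-values were adjusted over these genes by Benjamini-Hochberg. The study's thresholds were kept, while its own test, made for raw reads, was not used on these normalized values. On simulated data for this comparison (16005 genes, 200 changed by 2 on the log2 scale), 89.4% were recovered with 5.2 false calls on average. The simulated noise was independent between genes. The members differed by less, 0.74 to 1.16, and recovery of changes of that size was not simulated. For single values groups were compared by exact permutation, where 0.1 is the smallest p possible. All members were named, as were Sfrp2, genes among the 3 of highest mean in each list, and the 5 closest profiles. The members and lists were chosen with earlier results of these data known. Alternatives covered the pseudocount, filter, scaling, trend, sample weights, replicate block, each library left out, and a macrophage marker reference, with voom on recovered reads (15649 genes) and centring on the median of all genes chosen after seeing the data.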

Additional observations from a re-analysis of the deposited data

How the results depend on the processing

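Over 17 limma fits, the 9 members kept a log2 fold change above 0, and no gene passed the adjusted threshold in any (smallest adjusted p 0.119, with sample weights). Relative to macrophage markers, Ccl2 was -0.010 and Ccl8 -0.00057.

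Members at unadjusted limma p under 0.05 (4) numbered 2 under quantile normalization, 2 under median-of-ratios scaling and 2 when rescaled without the most abundant genes. With a library left out they numbered 1 (without NC 3) to 6 (without NC 2 or SFRP2-siRNA 3), and 2 without SFRP2-siRNA 1. All genes higher at that limit numbered 1075, then 474, 438 and 429 under those scalings. They numbered 919 without NC 3, 1566 without NC 2, 1099 without SFRP2-siRNA 3 and 890 without SFRP2-siRNA 1. Members without overlap (3) numbered 0, 1 and 1 under those scalings and 3 to 7 with a library left out (5 without NC 1, 7 without NC 2, 6 without SFRP2-siRNA 3). Over all 16005 genes, those higher without overlap numbered 2226, then 980, 886 and 788 under those scalings. They numbered 2517 without NC 1, 4131 without NC 2 and 3520 without SFRP2-siRNA 3. The members' median ranged from 0.70 to 1.13 with a library left out and was 0.70 once the median of all genes was subtracted. With voom on recovered reads 4 members and 1498 genes were at unadjusted p under 0.05 and 0 passed adjustment.

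All genes at unadjusted p under 0.05 (1533) numbered 887 (without NC 1) to 1970 with a library left out, and 948 without SFRP2-siRNA 2. Genes without overlap (2854) numbered 3692 to 5529 with a library left out and 1711 when rescaled without the most abundant genes. Median-of-ratios scaling left 438 of 1185 unadjusted calls higher, against 1075 of 1533.

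The labels do not state whether replicate numbers pair the samples. Correlations of deviations between libraries of the same number were -0.05, -0.15 and 0.38, too few to settle it. With the replicate block 4 members were at unadjusted p under 0.05 (Ccr1, Ccl6, Ccl4 and Ccl3), 1929 genes were, and 0 passed adjustment.

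Among other named genes 778 of 795 fits kept direction. Rela was -0.091 under median-of-ratios scaling, -0.031 under quantile normalization and -0.037 when rescaled without the most abundant genes. Krt5 was -0.052 with median-of-ratios and -0.17 with sample weights, and Trbc2 was 0.067 with equal sums. With a library left out, ranges that crossed 0 were -0.012 to 0.13 for Rela, -0.14 to 0.36 for Krt5, -0.030 to 0.61 for Krt14, -0.17 to 0.149 for Trbc2, -0.15 to 0.011 for Zbtb46, -0.53 to 0.031 for Adipoq, -0.59 to 0.21 for Lep (0.079 without SFRP2-siRNA 3) and -0.43 to 0.096 for Cidec. The cause of these shifts was not tested. The members had at least 489 reads in each library.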
